A study of Mus musculus with 18 samples.

Results

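The basement membrane genes described here are 36 genes that encode laminin chains, type IV and other basement membrane collagens, nidogens, heparan sulphate proteoglycans, the Fras/Frem proteins, linkers and the receptor dystroglycan. They were chosen by gene symbol in the GENCODE M21 annotation, with no measured value in the rule, and are 36 of the 52636 gene identifiers in each count table. All are protein-coding. RNA was sequenced from mammary epithelial cells of 6 nulliparous mice aged 12 weeks, which carried the MMTV-Cre transgene and had no treatment. In MMTV-Cre mice a promoter of the mouse mammary tumour virus drives the Cre recombinase, and every library came from this genotype, so there is no group without the transgene and the labels name no floxed allele. Glands were digested with enzymes, and cells were sorted on CD49f, CD61, EpCAM and a lineage panel against CD31, CD45 and Ter119. The basal population was high for CD49f and positive for CD61, alveolar progenitors (AP) were low for CD49f and positive for CD61, and hormone-sensing luminal cells (HSL) were low for CD49f and negative for CD61. Each population had 6 libraries, numbered 1 to 6.

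A basement membrane is the thin sheet of matrix on which an epithelium rests. Laminins are trimers of an alpha, a beta and a gamma chain that polymerise at the cell surface, type IV collagen forms a second network, and nidogens and the heparan sulphate proteoglycans perlecan and agrin link them, while integrins and dystroglycan hold the cell to the sheet. In the mammary gland the contractile basal cells lie directly on this sheet, and luminal cells line the lumen, mostly without touching it.

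Library totals lay between 29899462 and 91095830 counts for basal, 37391691 and 62505465 for AP, and 26516293 and 52404937 for HSL. The sorted identities were checked on marker genes: the sum of 8 basal markers (among them Krt5, Krt14 and Acta2) was 23138 to 41683 CPM in basal libraries, 92.8 to 279 in AP and 33.7 to 164 in HSL. The sum of 6 alveolar progenitor markers was highest in AP (4147 to 11059 CPM) and that of 6 hormone-sensing markers highest in HSL (3189 to 5321 CPM). The 3 libraries of sample 1 stood apart on the third principal component (7.82% of the variance), at 76.05 to 90.87 against -54.77 to 19.47 for the other libraries, so counts without sample 1 are given below. Levels are CPM, counts relative to a library total scaled with TMM factors, as mean ± SD over 6 libraries, and differences are log2 fold changes ± SE from edgeR, positive where the first-named population was higher. Called below means an adjusted p under 0.05, with adjustment over the 16471 genes tested. The labels do not say that each number is a separate animal, so p-values measure the spread between these libraries. In such bulk libraries, fewer cells of a type and less RNA per cell cannot be told apart.

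The stretches upstream of 6 members are shown because these genes mark the ends of the pattern: Col17a1 had the largest deficit in both luminal populations, Col4a5 and Col4a6 start head to head and kept the largest share of type IV collagen in luminal cells, and Lama5, Npnt and Egflam were higher in HSL than in basal libraries. All are from RefSeq on GRCm38.p6, 5′ to 3′ on the gene's own strand, and begin 250 bases before a RefSeq transcript start; 26 of the 36 members had an entry. Any part that lies in an annotated exon was left out. Capitals mark matches on either strand to 6 motifs. These are GGGCGG, the box bound by Sp factors, the CCAAT box, TATAAA for the box near many transcription starts, TGANTCA for the AP-1 site, GGAATG for the TEAD site, and CACCTG for an E box. No motif of the 6 contains another.
Col17a1 is at chr19:47692095-47692292 on the minus strand, Col4a5 at chrX:141475169-141475384 on the plus strand, and Col4a6 at chrX:141474077-141474326 on the minus strand. Lama5 is at chr2:180225860-180226109, Npnt at chr3:132950292-132950541 and Egflam at chr15:7398396-7398645, all on the minus strand.
Col17a1: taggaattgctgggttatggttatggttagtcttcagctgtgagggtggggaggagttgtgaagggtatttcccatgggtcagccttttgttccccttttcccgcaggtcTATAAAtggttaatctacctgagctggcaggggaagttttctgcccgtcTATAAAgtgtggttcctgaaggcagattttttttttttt
Col4a5: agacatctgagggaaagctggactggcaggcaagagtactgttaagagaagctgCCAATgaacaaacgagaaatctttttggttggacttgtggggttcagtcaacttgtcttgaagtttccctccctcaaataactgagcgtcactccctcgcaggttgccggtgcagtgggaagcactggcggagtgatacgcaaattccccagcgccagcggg
Col4a6: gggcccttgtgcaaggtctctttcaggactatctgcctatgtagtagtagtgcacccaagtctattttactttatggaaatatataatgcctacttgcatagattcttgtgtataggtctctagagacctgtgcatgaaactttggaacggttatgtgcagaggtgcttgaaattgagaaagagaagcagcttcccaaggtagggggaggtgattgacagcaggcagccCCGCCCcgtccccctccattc
Lama5: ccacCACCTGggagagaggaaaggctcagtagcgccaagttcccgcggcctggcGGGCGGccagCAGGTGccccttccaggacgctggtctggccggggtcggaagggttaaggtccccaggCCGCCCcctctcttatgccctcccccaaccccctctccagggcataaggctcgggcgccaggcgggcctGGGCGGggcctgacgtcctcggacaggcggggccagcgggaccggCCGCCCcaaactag
Npnt: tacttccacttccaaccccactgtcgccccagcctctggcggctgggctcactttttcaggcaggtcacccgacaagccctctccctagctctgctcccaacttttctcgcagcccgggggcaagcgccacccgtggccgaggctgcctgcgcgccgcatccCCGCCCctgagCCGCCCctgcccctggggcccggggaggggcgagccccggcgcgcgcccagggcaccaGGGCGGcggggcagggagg
Egflam: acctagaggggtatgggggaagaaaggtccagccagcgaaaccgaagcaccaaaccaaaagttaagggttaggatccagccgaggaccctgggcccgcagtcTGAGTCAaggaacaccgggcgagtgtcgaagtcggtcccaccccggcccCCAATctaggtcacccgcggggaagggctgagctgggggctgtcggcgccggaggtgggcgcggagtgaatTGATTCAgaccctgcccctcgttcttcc

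The Col17a1 stretch held TATAAA 2 times, and this was 1 of 35 member windows with that motif (2.86%, against 12.4% of 32851 windows of the same length over all genes). GGGCGG was found 4 times before Lama5, 3 times before Npnt and 1 time before Col4a6, and was in 48.6% of member windows and 32.7% of all. CCAAT was in 37.1% of member windows and 33.8% of all, TGANTCA in 8.57% and 6.75%, GGAATG in 14.3% and 12.6%, and CACCTG in 14.3% and 17.2%. The 35 member windows come from 26 members. Some members have more than 1 window, and sites in overlapping windows count again, as for TGANTCA before Egflam. Egflam held TGANTCA 2 times and CCAAT 1 time, and Lama5 held CACCTG 2 times. GC content was 74% for Npnt, 72.4% for Lama5 and 63.2% for Egflam, and 45.5% for Col17a1, beside a median of 52.4% over all windows. These matches describe the letters of the windows only. Among the type IV collagens, the annotated starts of Col4a1 and Col4a2 overlap by 22 bases on chromosome 8, those of Col4a4 and Col4a3 are separated by 71 bases on chromosome 1, and those of Col4a6 and Col4a5 by 1308 bases on chromosome X.

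Most basement membrane genes were highest in basal libraries, and the deficit was deeper in HSL than in AP libraries. Of the 35 members tested, 24 were lower and 2 higher in AP than in basal libraries, where 23.1% of all genes tested were called lower and 21.5% higher. In HSL against basal libraries 30 were lower and 3 higher (30.6% and 27.8% of all genes), and in HSL against AP libraries 21 were lower and 4 higher (20.1% and 19.8%). The median log2 difference over the members was -1.88, -4.53 and -1.57 in these 3 comparisons, and over all genes -0.0013, -0.06 and -0.01. Without the 4 members that were above the filter on counts in basal libraries only (Lama1, Fras1, Frem1 and Frem2), 21 of 31 were lower and 2 higher in AP against basal, 26 and 3 in HSL against basal, and 20 and 4 in HSL against AP, with medians of -1.81, -4.07 and -1.57. Over the 14897 genes left when those that passed in 1 population only were taken out, the shares lower and higher were 21.1% and 22.3%, 28.6% and 29.5%, and 20.2% and 20.9%. The 3 comparisons share libraries, so their counts are not independent of each other.

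The calls formed a few patterns. In both luminal populations 24 members were lower than in basal, and for 16 of them HSL was also lower than AP: Lama3, Lamb1, Lamb3, Lamc3, Col4a1, Col4a2, Col4a5, Col4a6, Col17a1, Col18a1, Nid1, Nid2, Hspg2, Sparc, Fbln1 and Fbln2. Lama1, Lamc1, Col7a1, Agrn, Fras1, Frem2 and Dag1 were lower in both, with no call between AP and HSL, and Tinagl1 was lower in both but higher in HSL than in AP. Lama2, Lama4, Col15a1, Frem1 and Smoc2 were lower in HSL than in either of the other populations, with no call between AP and basal. Npnt and Egflam were higher in AP than in basal and higher again in HSL. Libraries of the 2 populations did not overlap for 23 members lower and 1 higher in AP against basal (14.4% and 11.5% of all genes), 28 and 2 in HSL against basal (20.1% and 16.8%), and 12 and 2 in HSL against AP (11% and 9.56%). Col4a3 was below the filter and was not tested. Above 0.223 CPM, the lowest level kept by the filter on counts, were 25 members in every library, and Lama1, Fras1, Frem1 and Frem2 were above it in all libraries of basal only. These 4 passed the filter through basal libraries alone, which favours a lower call against basal. Their calls against basal are in the counts of all 35 tested members but are read as a description only. Counts without them are given above.

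**Figure D1:**
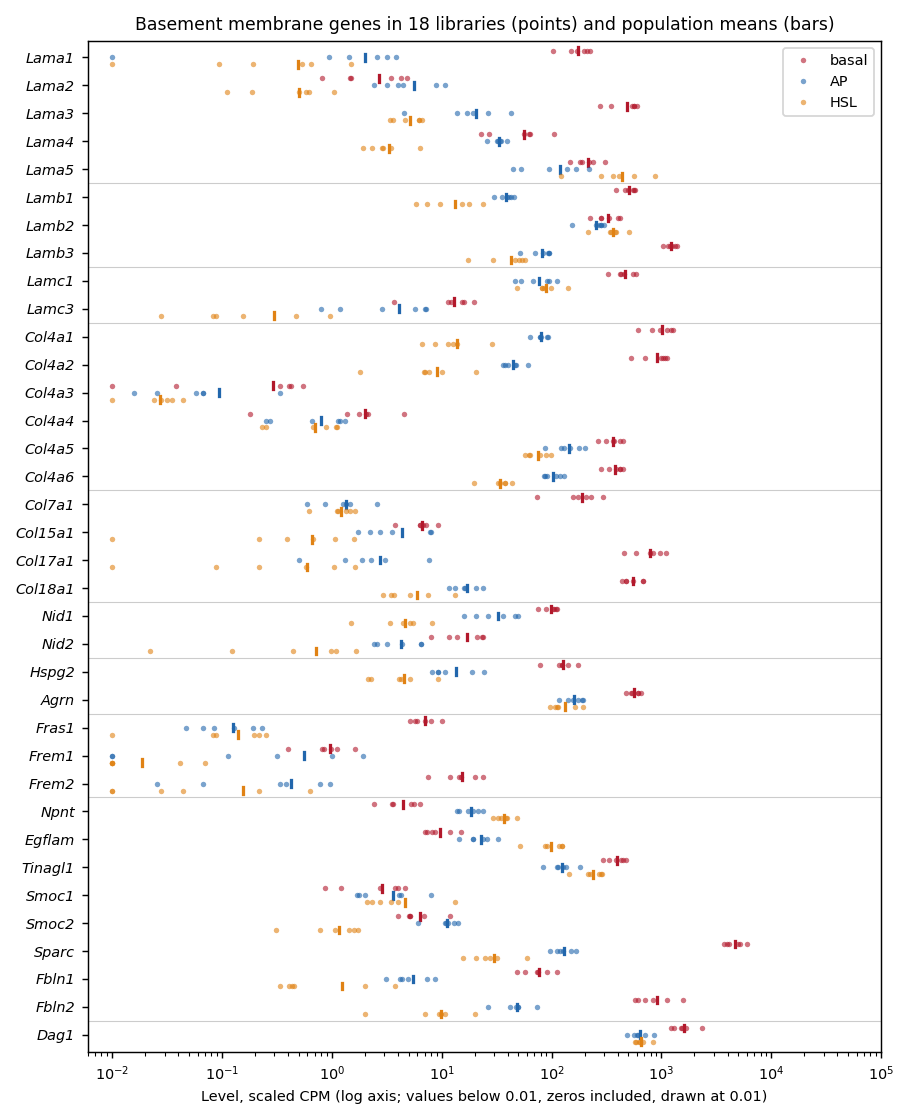
Level of each of the 36 genes (scaled CPM, log axis; values below 0.01, zeros included, are drawn at 0.01) in each of the 18 libraries (points; red basal, blue AP, orange HSL), with the population mean as a bar and lines between gene groups. Basal libraries lie to the right for most genes, from Sparc at 4662 CPM downward, while Npnt, Egflam and Lama5 have their highest mean in HSL libraries.

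Without sample 1, 25 members were lower and 3 higher in AP against basal (25.7% and 25.1% of all genes), 31 and 3 in HSL against basal (34.5% and 30.3%), and 24 and 5 in HSL against AP (24.7% and 23.3%). In HSL against basal none of the 35 members tested over all samples changed its call. The 31 lower include Col4a3, which was below the filter over all samples. The names of the deposited tables fall into 2 runs of identifiers, samples 1 to 3 and samples 4 to 6, and the labels give no batch. Within samples 1 to 3 the counts were 23 lower and 1 higher (11.9% and 10.2% of all genes), 28 and 2 (18.7% and 15.0%), and 13 and 2 (6.23% and 2.63%). Within samples 4 to 6 they were 26 and 2 (24.2% and 23.3%), 29 and 3 (32.3% and 28.4%), and 20 and 4 (22.9% and 20.9%). The calls between HSL and AP that were missing within samples 1 to 3 were those of Lama3, Lama5, Lamb3, Lamc3, Col4a5, Col17a1, Col18a1, Hspg2, Tinagl1 and Fbln2, and within samples 4 to 6 those of Col15a1, Frem1 and Fbln1.

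The leading laminin alpha chain differed between populations. Lama3, the alpha chain of the laminin that anchors hemidesmosomes, was 276 to 598 CPM in basal libraries (median 552), 4.58 to 43 in AP (median 18.1) and 3.37 to 6.67 in HSL (median 5.41). No luminal library reached the lowest basal one, and AP and HSL libraries overlapped. The difference was -4.54 ± 0.41 for AP against basal (adjusted p = 6.43e-08), -6.56 ± 0.46 for HSL against basal (adjusted p = 1.37e-09) and -2.01 ± 0.38 for HSL against AP (adjusted p = 0.000367). Lama1, an alpha chain best known from embryonic basement membranes, was 103 to 224 CPM in basal libraries, 0 to 3.8 in AP and 0 to 1.5 in HSL. Its difference from basal was -6.48 ± 0.82 in AP and -8.40 ± 0.91 in HSL. HSL against AP was -1.92 ± 0.76 (adjusted p = 0.0531), and was called with a block for sample number (adjusted p = 0.0417), without sample 1 (0.0114) and without sample 4 (0.0121).

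Lama5, the alpha chain found in most adult epithelial basement membranes, went the other way. Its level was 148 to 310 CPM in basal libraries (median 205), 44.2 to 218 in AP (median 118) and 122 to 875 in HSL (median 388). HSL was above AP in 6 of 6 samples and above basal in 5 of 6, and sample 1, at 122 CPM in HSL against 182 in basal, was the exception. HSL exceeded AP by 1.87 ± 0.42 (adjusted p = 0.00175) and basal by 1.02 ± 0.41 (adjusted p = 0.0414). The second call was lost without any one of samples 2 to 6 (adjusted p from 0.0629 to 0.106) with limma-voom (adjusted p = 0.0994), with no filter on counts (adjusted p = 0.0662) and within samples 1 to 3 (adjusted p = 0.307), and without sample 1 the adjusted p was 0.00999. AP against basal was not called (-0.85 ± 0.41, adjusted p = 0.104), and was called lower with a block for sample number (-1.05, adjusted p = 0.00651) and within samples 4 to 6 (adjusted p = 0.0214).

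Lama4, a chain of vessel and other mesenchymal basement membranes, was 56.0 ± 29.6 CPM in basal libraries, 33.1 ± 4.27 in AP and 3.31 ± 1.60 in HSL, and Lama2, the alpha chain of muscle and nerve laminins, was 2.71 ± 1.67, 5.60 ± 3.37 and 0.507 ± 0.335 CPM. HSL was lower than AP by -3.31 ± 0.35 for Lama4 (adjusted p = 1.32e-06) and by -3.45 ± 0.58 for Lama2 (adjusted p = 0.000129). AP against basal was not called for Lama4 (-0.76 ± 0.32, adjusted p = 0.0621) or Lama2 (1.04 ± 0.52, adjusted p = 0.117), although AP exceeded basal in 6 of 6 samples for Lama2, which limma-voom called. Other genes cover 12.3% of the exon bases of Lama2, so its level is uncertain. Without sample 2 or sample 4, Lama4 was called lower in AP (adjusted p = 0.0488 and 0.0413).

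Lamb2 was the one laminin beta chain with no call in any comparison. Lamb2 was 222 to 422 CPM in basal (median 309), 154 to 300 in AP (median 274) and 216 to 504 in HSL libraries (median 363), and the 3 ranges overlapped. The differences were -0.35 ± 0.20 for AP against basal (adjusted p = 0.17), 0.16 ± 0.20 for HSL against basal (adjusted p = 0.522) and 0.50 ± 0.20 for HSL against AP (adjusted p = 0.0526). AP was below basal in 6 of 6 samples and below HSL in 6 of 6, and both differences were called with a block for sample number (-0.34, adjusted p = 0.0051, and 0.49, adjusted p = 0.00048). HSL against AP was also called without sample 1 (adjusted p = 0.00778). Lamb1, the widespread partner of many alpha chains, was 388 to 578 CPM in basal libraries, 29.7 to 45.5 in AP and 5.87 to 23.7 in HSL, 3 ranges that did not touch. Its level was lower by -3.71 ± 0.29 in AP (adjusted p = 7.18e-09) and by -5.26 ± 0.31 in HSL (adjusted p = 1.62e-10). Lamb3, which pairs with Lama3, was 1227 ± 130 CPM in basal libraries, 81.6 ± 17.3 in AP and 42.6 ± 15.8 in HSL, differences of -3.91 ± 0.26 (adjusted p = 1.09e-09) and -4.85 ± 0.27 (adjusted p = 9.04e-11). Other genes cover 20.7% of the exon bases of Lamb3, so its level is uncertain.

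Of the gamma chains, Lamc1, shared by most laminins, was 463 ± 96.7 CPM in basal libraries, 77.6 ± 25.9 in AP and 89.5 ± 30.2 in HSL. It was lower than basal by -2.58 ± 0.25 in AP (adjusted p = 1.71e-07) and -2.37 ± 0.25 in HSL (adjusted p = 2.61e-07). Between HSL and AP it was not called (0.21 ± 0.24, adjusted p = 0.529). Lamc3 was a minor chain, at 13.0 ± 5.49 CPM in basal libraries, 4.13 ± 2.89 in AP and 0.300 ± 0.364 in HSL. Its call in AP (-1.66 ± 0.65, adjusted p = 0.0454) was lost without any one of samples 3 to 6 (adjusted p from 0.0626 to 0.129), with total counts (0.0682), with no filter on counts (0.0673) and within samples 1 to 3 (0.471).

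Levels per kilobase of merged exons allow the chains of a family to be set beside each other. Lama3 made up 51.5 ± 8.74% of the laminin alpha chains in basal libraries, 12.1 ± 5.60% in AP and 1.78 ± 1.58% in HSL. Lama5 was 21.7 ± 2.69% in basal libraries, 63.3 ± 12.0% in AP and 96.6 ± 3.78% in HSL. Lama4 was 20.8 ± 10.1% of the alpha chains in AP, against 5.47 ± 3.33% in basal. Among beta chains Lamb3 held 64 ± 1.71% in basal, and Lamb2 held 72.0 ± 1.66% in AP and 88.2 ± 3.84% in HSL libraries. For type IV collagen, Col4a1 and Col4a2 were the leading chains in basal (35.9 ± 2.44% and 36.4 ± 1.95%), while Col4a5 led in AP (40.6 ± 5.72%) and in HSL (59.8 ± 9.47%).

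**Figure D2:**
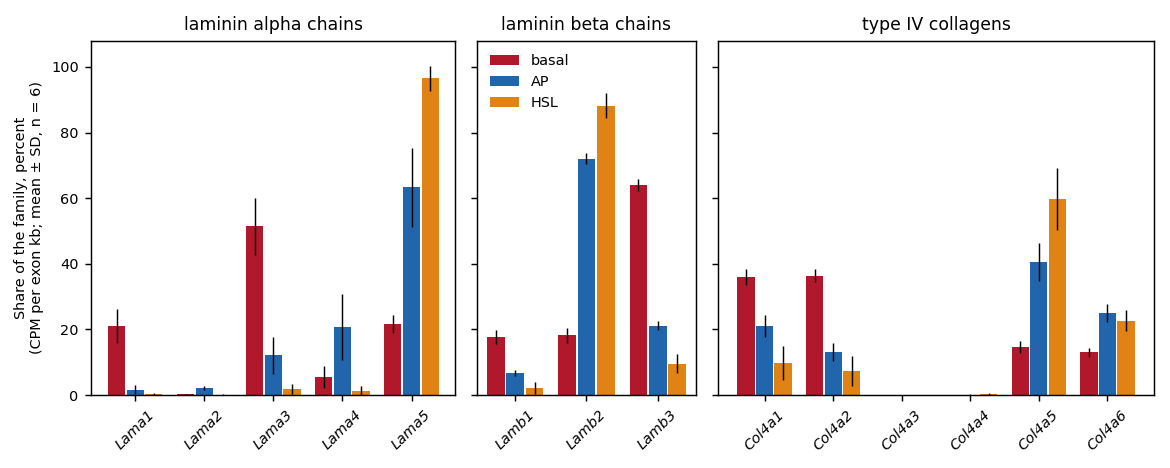
Share of each chain in its family (percent of summed CPM per kilobase of exon; bars mean, lines SD, n = 6 libraries) for laminin alpha chains, laminin beta chains and type IV collagens in basal (red), AP (blue) and HSL (orange) libraries. The leading alpha chain is Lama3 in basal (51.5%) and Lama5 in HSL (96.6%), and the leading beta chain is Lamb3 in basal (64%) and Lamb2 in HSL (88.2%).

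All 5 type IV collagen chains that could be tested were lower in HSL than in basal libraries, and 4 were lower in AP. Col4a1 and Col4a2, which form the common network, were 1007 ± 252 and 912 ± 240 CPM in basal, 80.9 ± 10.8 and 44.9 ± 9.55 in AP, and 13.7 ± 7.80 and 8.99 ± 6.22 in HSL libraries. The ranges were 616 to 1277, 63.3 to 93.3 and 6.68 to 28.6 CPM for Col4a1, with no overlap between populations. Differences for Col4a1 were -3.64 ± 0.30 in AP (adjusted p = 1.61e-08) and -6.20 ± 0.34 in HSL (adjusted p = 7.67e-11), and for Col4a2 -4.34 ± 0.41 (adjusted p = 8.76e-08) and -6.66 ± 0.45 (adjusted p = 1e-09). Other genes cover 23.7% of the exon bases of Col4a1 and 16.6% of those of Col4a2, and part of this is the overlap of the pair itself.

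The X-linked pair was lower by less. Col4a5 was 263 to 444 CPM in basal libraries, 86.5 to 204 in AP and 57.8 to 99.3 in HSL, and Col4a6 was 285 to 444, 84.6 to 131 and 19.9 to 43.3 CPM. Against basal, Col4a5 differed by -1.33 ± 0.20 in AP (adjusted p = 2.00e-05) and -2.27 ± 0.20 in HSL (adjusted p = 2.64e-08), and Col4a6 by -1.88 ± 0.17 (adjusted p = 6.46e-08) and -3.47 ± 0.18 (adjusted p = 5.46e-11). Both were also lower in HSL than in AP (-0.94 ± 0.19, adjusted p = 0.000825, and -1.60 ± 0.17, adjusted p = 1.37e-06). Col4a3 and Col4a4, the chains of the glomerular network, were near the limit of detection: Col4a3 had 0 to 36 counts per library, with 50.0% of its exon bases inside other genes, so its level is uncertain, and Col4a4 was 2.00 ± 1.42 CPM in basal libraries, 0.805 ± 0.478 in AP and 0.708 ± 0.396 in HSL. Col4a4 in HSL against basal (-1.50 ± 0.61, adjusted p = 0.0429) lost its call without any one of samples 2 to 6 (adjusted p from 0.0610 to 0.108), with limma-voom (0.123), with no filter on counts (0.0528) and within samples 1 to 3 (0.373) or 4 to 6 (0.0725), and in AP (-1.31 ± 0.60, adjusted p = 0.0884) it was called only with the block (adjusted p = 0.0155) or without sample 1.

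The collagens of epithelial anchorage, Col17a1 and Col7a1, had the largest differences of the tested members between AP and basal. Col17a1, the transmembrane collagen of hemidesmosomes, was 457 to 1104 CPM in basal (median 813), 0.504 to 7.63 in AP (median 2.07) and 0 to 1.62 in HSL libraries (median 0.400). The lowest basal library was above every luminal one. The difference was -8.17 ± 0.77 for AP against basal (adjusted p = 9.95e-08) and -10.29 ± 0.85 for HSL against basal (adjusted p = 1.11e-08). HSL was below AP in 5 of 6 samples (-2.12 ± 0.65, adjusted p = 0.0145), a call lost without sample 5 (adjusted p = 0.0611) or sample 6 (adjusted p = 0.0889) and when these 2 populations were fitted alone (adjusted p = 0.0519). Within samples 1 to 3 this difference was -0.56 and within samples 4 to 6 it was -5.17, called in the second only (adjusted p = 0.569 and 0.00132). Col7a1, which forms the anchoring fibrils below the membrane, was 73.1 to 294 CPM in basal libraries, 0.600 to 2.60 in AP and 0.617 to 1.62 in HSL. Its level differed by -7.13 ± 0.41 (adjusted p = 2.45e-10) and -7.27 ± 0.42 (adjusted p = 1.23e-10) from basal, and the 2 luminal populations were not called apart (-0.14 ± 0.35, adjusted p = 0.782).

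Col18a1 and Col15a1, the collagens with endostatin domains, differed from each other. Col18a1 was 550 ± 106 CPM in basal libraries, 17 ± 4.54 in AP and 5.99 ± 3.91 in HSL, lower by -5.02 ± 0.35 (adjusted p = 2.45e-09) and -6.51 ± 0.38 (adjusted p = 1.58e-10). Other genes cover 33.5% of its exon bases. Col15a1 was 6.64 ± 1.76 CPM in basal libraries, 4.35 ± 2.82 in AP and 0.654 ± 0.586 in HSL, and was called lower in HSL only (-3.31 ± 0.64 against basal, adjusted p = 0.000213).

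The nidogens, which bridge laminin and type IV collagen, were lower in each step from basal to AP to HSL. Nid1 was 75.7 to 112 CPM in basal libraries, 15.9 to 49.1 in AP and 1.5 to 8.11 in HSL, with no overlap between populations. It differed by -1.61 ± 0.32 in AP (adjusted p = 0.000427) and -4.41 ± 0.36 in HSL (adjusted p = 9.39e-09) against basal, and by -2.81 ± 0.34 between HSL and AP (adjusted p = 4.30e-06). Other genes cover 10.1% of the exon bases of Nid1, so its level is uncertain. Nid2 was 16.9 ± 6.65, 4.24 ± 1.87 and 0.719 ± 0.631 CPM, lower by -1.99 ± 0.57 (adjusted p = 0.00807) and -4.53 ± 0.65 (adjusted p = 8.57e-06).

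Perlecan and agrin, the heparan sulphate proteoglycans, differed in how far they fell. Perlecan (Hspg2) was 78.8 to 174 CPM in basal libraries, 8.24 to 24.5 in AP and 2.13 to 9.17 in HSL, differing by -3.23 ± 0.36 in AP (adjusted p = 8.82e-07) and -4.81 ± 0.39 in HSL (adjusted p = 9.85e-09) from basal. Agrin (Agrn) was 477 to 648, 116 to 195 and 97.9 to 194 CPM, differing by -1.81 ± 0.17 in AP (adjusted p = 1.22e-07) and -2.11 ± 0.18 in HSL (adjusted p = 1.21e-08). In HSL, Agrn was below AP in 6 of 6 samples, was not called (-0.30 ± 0.17, adjusted p = 0.171), and was called with a block for sample number (-0.32, adjusted p = 0.0278), without sample 1 (adjusted p = 0.0409) and within samples 4 to 6 (adjusted p = 0.0346).

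Fras1, Frem1 and Frem2 form a complex below the epidermis that holds skin to the dermis. Fras1 was 5.11 to 10.1 CPM in basal libraries, 0.0474 to 0.231 in AP and 0 to 0.253 in HSL, and Frem2 was 7.52 to 24.0, 0.0255 to 0.959 and 0 to 0.635 CPM. Neither luminal population overlapped with basal for these genes. Differences against basal were -5.79 ± 0.54 in AP and -5.59 ± 0.54 in HSL for Fras1, and -5.17 ± 0.86 and -6.48 ± 0.93 for Frem2. HSL against AP was not called for Frem2 (-1.31 ± 0.82, adjusted p = 0.216), and was called without sample 1 (adjusted p = 0.0375) and within samples 4 to 6 (adjusted p = 0.0189). Frem1 was 0.403 to 1.63 CPM in basal libraries, 0 to 1.91 in AP and 0 to 0.0706 in HSL. In AP its highest values were in samples 1 and 2, and AP against basal was 0.39 within samples 1 to 3 and -4.81 within samples 4 to 6, beside -0.79 ± 0.93 over all and -2.70 with limma-voom. Frem1 was called lower in AP than in basal within samples 4 to 6 and with limma-voom, but not over all samples. HSL against AP (-4.63 ± 1.23, adjusted p = 0.00591) was not called without sample 2 (adjusted p = 0.0504), with limma-voom (adjusted p = 0.131) or within samples 4 to 6 (adjusted p = 0.489).

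**Figure D3:**
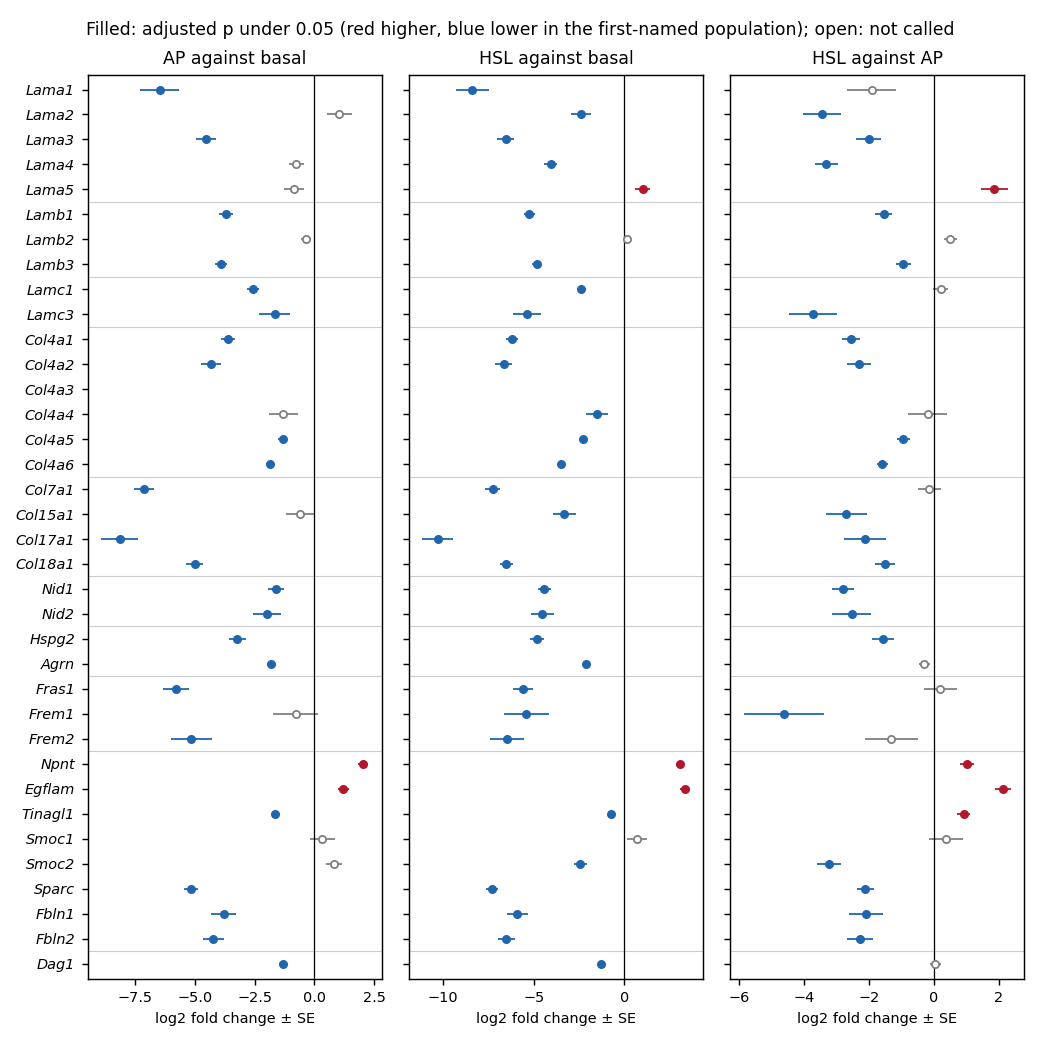
Log2 fold change (points) ± SE (lines) of the 35 tested members for AP against basal, HSL against basal and HSL against AP, with genes in the same order as in the plot of levels. Filled points have an adjusted p under 0.05 (blue lower, red higher in the first-named population): 24 and 2, 30 and 3, and 21 and 4. Lama1, Fras1, Frem1 and Frem2 passed the filter through basal libraries only, so their points against basal are a description.

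Among the linkers and matricellular proteins, Npnt and Egflam were the members that rose at each step from basal to AP to HSL. Nephronectin (Npnt), a ligand of integrin alpha 8 beta 1, was 2.44 to 6.32 CPM in basal (median 4.42), 13.7 to 23.7 in AP (median 18.3) and 29.2 to 48.7 in HSL libraries (median 36.4). The 3 ranges did not overlap. It was higher by 2.04 ± 0.22 in AP (adjusted p = 4.87e-07) and 3.06 ± 0.23 in HSL (adjusted p = 2.90e-09) than in basal, and by 1.02 ± 0.21 in HSL than in AP (adjusted p = 0.000888). Pikachurin (Egflam), a ligand of dystroglycan known from the retina, was 7.10 to 15.1 CPM in basal (median 8.38), 14.5 to 32.5 in AP (median 21.7) and 52.1 to 124 in HSL libraries (median 104). HSL libraries were above all others, and basal and AP touched. The differences were 1.21 ± 0.24 (adjusted p = 0.000458), 3.34 ± 0.26 (adjusted p = 5.05e-09) and 2.13 ± 0.25 (adjusted p = 3.01e-06). Within samples 1 to 3 alone, Egflam was not called between AP and basal (adjusted p = 0.0578).

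Tinagl1, a secreted protein that binds laminin and integrins, was 395 ± 69.3 CPM in basal libraries, 126 ± 32.5 in AP and 237 ± 55.0 in HSL. It was lower than basal by -1.65 ± 0.19 in AP (adjusted p = 1.26e-06) and -0.74 ± 0.19 in HSL (adjusted p = 0.00252), and higher in HSL than in AP in 6 of 6 samples (0.91 ± 0.19, adjusted p = 0.000824). Within samples 1 to 3, neither difference of HSL was called (adjusted p = 0.127 against basal and 0.0653 against AP). Smoc1, a SPARC-related calcium-binding protein, was not called in any comparison, at 2.87 ± 1.55, 3.61 ± 2.40 and 4.63 ± 4.24 CPM. Its relative Smoc2 was 6.33 ± 2.84 CPM in basal libraries, 11.1 ± 2.78 in AP and 1.16 ± 0.543 in HSL, lower in HSL than in AP by -3.25 ± 0.37 (adjusted p = 2.73e-06). Smoc2 in AP against basal (0.81 ± 0.34, adjusted p = 0.0617) was called higher without sample 1 (adjusted p = 0.0451), without sample 5 (adjusted p = 0.00517), with total counts (adjusted p = 0.0366), DESeq2 (0.0376), limma-voom (0.0266) and the 2 populations alone (0.0272).

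Sparc, a matricellular protein that binds collagen, was the most abundant of the members in basal libraries, per kilobase of exon as well (1231 ± 225 CPM per kilobase). Its level was 3738 to 5961 CPM in basal libraries, 97.6 to 168 in AP and 15.5 to 59.4 in HSL, without overlap. The difference was -5.17 ± 0.30 in AP (adjusted p = 2.49e-10) and -7.28 ± 0.33 in HSL (adjusted p = 8.56e-12). Fbln1 and Fbln2, the fibulins that join basement membranes to elastic fibres, were lower in the same libraries. Fbln2 was 908 ± 384, 48.2 ± 15.4 and 9.87 ± 5.96 CPM, lower by -4.24 ± 0.43 (adjusted p = 2.38e-07) and -6.52 ± 0.48 (adjusted p = 2.50e-09), and Fbln1 was 76.1 ± 22.6, 5.43 ± 2.14 and 1.24 ± 1.40 CPM, lower by -3.81 ± 0.53 (adjusted p = 1.10e-05) and -5.90 ± 0.59 (adjusted p = 1.26e-07).

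Dystroglycan (Dag1), the receptor that binds laminin, perlecan and agrin at the cell surface, was lower in both luminal populations, which were not called apart. Its level was 1234 to 2336 CPM in basal (median 1530), 487 to 854 in AP (median 605) and 576 to 833 in HSL libraries (median 631). Every basal library was above every luminal one, and AP and HSL overlapped. It was lower by -1.33 ± 0.17 in AP (adjusted p = 2.96e-06) and -1.29 ± 0.17 in HSL (adjusted p = 2.65e-06), and HSL against AP was 0.04 ± 0.16 (adjusted p = 0.856, with a 95% interval of -0.28 to 0.36).

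Ratios of partner chains within a library do not depend on how libraries were scaled. Of 10 ratios, each compared by a two-sided exact permutation test of 6 against 6 libraries (smallest possible p = 0.0021645, adjusted over 30 tests), 8 differed between AP and basal, 8 between HSL and basal and 7 between HSL and AP. The log2 ratio of Lama5 to Lama3 was -1.15 ± 0.37 in basal libraries, 2.59 ± 0.85 in AP and 6.22 ± 1.15 in HSL, with no overlap between populations (exact permutation adjusted p = 0.00382 for each). The log2 ratio of Lamb3 to Lamb1 and Lamb2 together was 0.56 ± 0.11, -1.86 ± 0.12 and -3.22 ± 0.60, and that of Lamb2 to Lamb1 -0.67 ± 0.33, 2.70 ± 0.21 and 4.90 ± 0.99 (exact permutation adjusted p = 0.00382 for each comparison). Both beta chain ratios separated the 3 populations in every library.

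Ratios among type IV collagens also differed. The log2 ratio of Col4a5 to Col4a1 was -1.45 ± 0.27 in basal libraries, 0.79 ± 0.41 in AP and 2.59 ± 0.95 in HSL (exact permutation adjusted p = 0.00382 for both against basal and 0.00974 for HSL against AP). Col4a6 to Col4a5 was 0.07 ± 0.08, -0.45 ± 0.31 and -1.15 ± 0.36, lower in AP than in basal (exact permutation adjusted p = 0.00974) and in HSL than in AP (0.00974). Col4a2 to Col4a1 was -0.15 ± 0.12 in basal, -0.86 ± 0.22 in AP and -0.77 ± 0.60 in HSL, and the last pair was not called apart (exact permutation adjusted p = 0.779). Agrn to Hspg2 was 2.20 ± 0.27, 3.69 ± 0.48 and 5.0 ± 0.53 (exact permutation adjusted p = 0.00382 in each comparison). Nid2 to Nid1 and Col4a4 to Col4a3 were called in none, with exact permutation adjusted p from 0.36 to 0.933. Col18a1 to Col15a1 was 6.39 ± 0.44, 2.17 ± 0.59 and 3.84 ± 1.86, and its difference between HSL and either other population lost its call when samples were paired by number (exact permutation adjusted p = 0.0815 for both, with -2.56 and 1.67 as the differences). The first was also lost without any one of samples 1 to 5 (exact permutation adjusted p from 0.0621 to 0.0649) and the second without sample 1, 2, 3 or 6 (from 0.0541 to 0.0828), and HSL exceeded AP by 0.98 without sample 6.

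**Figure D4:**
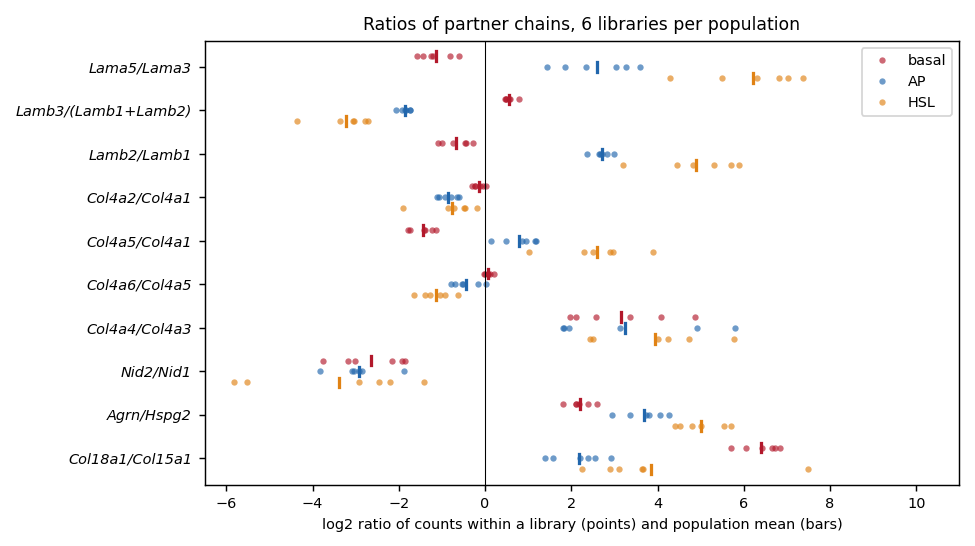
Log2 ratio of counts of partner chains within each library (points; 6 per population; red basal, blue AP, orange HSL) with the population mean as a bar. Lama5/Lama3 runs from -1.15 in basal to 6.22 in HSL and Lamb2/Lamb1 from -0.67 to 4.90, while Nid2/Nid1 and Col4a4/Col4a3 overlap between populations.

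Each luminal level was also taken as a percent of the basal library of the same number, for the members and for 8 basal marker genes. The markers had medians of 0.32 to 3.06% in AP and 0.122 to 0.635% in HSL libraries. In AP the highest of these was Oxtr alone, and the other 7 markers had medians of at most 0.758%. At or below that were Col7a1 (0.722%) and Col17a1 (0.315%), while Lama1 (1.11%), Fras1 (1.52%), Frem2 (1.96%), Sparc (2.71%) and Col18a1 (2.82%) lay between those 7 markers and Oxtr. In HSL, 6 members (Lama1, Col7a1, Col17a1, Frem1, Frem2 and Sparc) were at or below the 2 highest markers, at 0.594% and 0.635%. Above 10% of basal were 22 members in AP and 13 in HSL, and above 100% there were 5 in each. Examples are Lamc1 with a median of 16.0% in AP and 18.9% in HSL, Agrn with 29.0% and 21.8%, and Dag1 with 39.2% and 43.4%. Between these lay Lamb3 (6.76% and 3.82%), Fbln2 (6.87% and 1.21%) and Col4a1 (8.22% and 1.28%). The part of carried-over basal cells or RNA in these values was not tested.

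**Figure D5:**
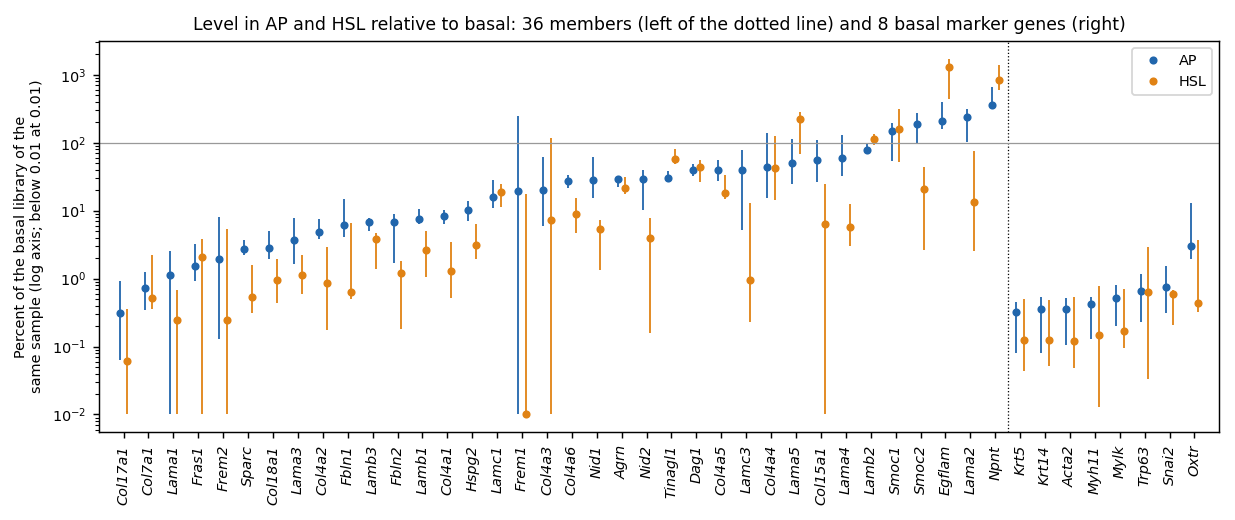
Level in AP (blue) and HSL (orange) as a percent of the basal library of the same sample number (log axis; points median of 6 samples, lines lowest to highest, values below 0.01 drawn at 0.01) for the 36 members, left of the dotted line, and 8 basal marker genes, right of it. Col17a1 (0.315%) and Col7a1 (0.722%) have the lowest medians of the members in AP, and Npnt and Egflam lie above 100% in both luminal populations.

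Markers of other cell types that also make basement membrane moved with some of these results. The sum of 10 endothelial markers was 103 to 319 CPM in basal libraries, 48.5 to 126 in AP and 87.9 to 220 in HSL, with none at 0 in all libraries of a population. All 10 were lower in AP than in basal (23.1% of all genes, median -1.88). In HSL against basal 9 were lower and 1 higher (30.6% and 27.8% of all genes, median -2.57). The 1 higher was Vwf, at 103 ± 48.5 CPM in HSL libraries against 54.9 ± 24.0 in basal and 29.2 ± 10.7 in AP. Erg was at least 0.492 CPM in basal libraries, but its lowest levels in AP and HSL (0.0575 and 0.157 CPM) were below the filter level of 0.223. Its calls against basal are therefore a description. The sum of 10 fibroblast markers, among them Col3a1, Col1a2, Dcn and Mmp2, was 1019 to 1968 CPM in basal libraries, 652 to 1651 in AP and 41.3 to 117 in HSL. In AP against basal 5 were higher (Col1a1, Col3a1, Lum, Dpt and Pi16) and 2 lower (Dcn and Mmp2), with a median of 0.88. Beside these, 21.5% of all genes were higher and 23.1% lower, and the 2 lower are 20% of the 10, near that share. Mmp2, which is also among the proteases of the basement membrane, was 774 ± 300.4 CPM in basal libraries and 37.7 ± 16.4 in AP, and Dcn was 414 ± 98.3 and 150 ± 67.6, whereas Col3a1 was 261 ± 53.2 and 516 ± 184. All 10 fibroblast markers were lower in HSL than in AP (20.1% of all genes) and than in basal (30.6%), and none was at 0 in all libraries of a population. Of the 21 members lower in HSL than in AP, 16 were also lower in AP than in basal, among them Nid1 (-1.61). The other 5 had no call in AP against basal: Lama2 (1.04), Smoc2 (0.81), Lama4 (-0.76), Col15a1 (-0.61) and Frem1 (-0.79). Sums over 7 pericyte markers were 70.1 to 108, 95.3 to 207 and 78.1 to 155 CPM, over 8 leukocyte markers 76.2 to 379, 5.60 to 126 and 4.67 to 189, over 5 adipocyte markers 93.4 to 300, 25.4 to 119 and 10.5 to 57.0, and over 5 Schwann cell markers 191 to 265, 292 to 658 and 111 to 125. The part of these cells in the results was not tested.

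The receptors that hold cells to the basement membrane were mostly lower in luminal libraries as well. Itga6 encodes CD49f, on which the cells were sorted, so its difference is no finding. Of the 16 other receptors and anchors, 11 were lower and none higher in AP than in basal (23.1% and 21.5% of all genes, median -1.07), and 13 were lower and none higher in HSL than in basal (30.6% and 27.8%, median -1.08). In HSL against AP, 4 were lower and 3 higher (median -0.28), shares of 25% and 18.8% near the 20.1% and 19.8% of all genes. Itga3, the alpha chain of a laminin receptor, was 353 ± 35.9 CPM in basal libraries, 77.7 ± 16.1 in AP and 149 ± 16.1 in HSL, and was higher in HSL than in AP by 0.94 ± 0.13 (adjusted p = 2.47e-05). The tetraspanin Cd151, which associates with it, also rose from AP to HSL (0.90 ± 0.13, adjusted p = 2.09e-05). Bcam, a receptor of Lama5, was 1361 ± 239, 536 ± 119 and 294 ± 59.3 CPM, so it was lowest in HSL, where Lama5 was highest. Itga8, the alpha chain of the nephronectin receptor, was 128 ± 44.8 CPM in basal libraries, 93.6 ± 47.4 in AP and 5.61 ± 2.35 in HSL. It was lower in HSL than in AP by -4.07 ± 0.42 (adjusted p = 1.08e-06), so it was lowest in HSL, where Npnt was highest. Itgb8, an integrin beta chain, was lower in HSL than in AP by -3.98 ± 0.33 (adjusted p = 1.65e-07).

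Genes for the assembly of collagen did not move as 1 group. Of 15, 8 were lower and 1 higher in AP than in basal (23.1% and 21.5% of all genes, median -0.45), 10 lower and 4 higher in HSL than in basal (30.6% and 27.8%, median -1.26), and 7 lower and 5 higher in HSL than in AP (20.1% and 19.8%, median -0.0028). The 4 higher in HSL than in basal are 26.7% of the 15, near the share of all genes. With a block for sample number, 3 were called higher in AP than in basal. Serpinh1, the collagen chaperone, was 1285 ± 411 CPM in basal libraries, 248 ± 111 in AP and 44.6 ± 50.5 in HSL, and P3h1 and Crtap, of the prolyl 3-hydroxylation complex, were lower in both luminal populations. P4ha2, a prolyl 4-hydroxylase subunit, and Plod1, a lysyl hydroxylase, were highest in HSL (208 ± 135 and 332 ± 99.6 CPM, against 20.7 ± 9.71 and 102 ± 12.4 in basal). Plod1 was higher in HSL than in AP by 2.17 ± 0.28 (adjusted p = 1.07e-05) and P4hb by 0.76 ± 0.13 (adjusted p = 0.000149). Loxl1 and Loxl2, lysyl oxidases, were lower in HSL than in AP by -4.45 ± 0.64 and -3.62 ± 0.46 (adjusted p = 2.91e-05 and 8.63e-06).

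Of 14 genes of the dystroglycan complex and its glycosylation, 4 were lower and 3 higher in AP than in basal (median -0.49), shares of 28.6% and 21.4% near the 23.1% and 21.5% of all genes. In HSL against basal 9 were lower and 2 higher (30.6% and 27.8% of all genes, median -0.85), and in HSL against AP 5 were lower and 1 higher (20.1% and 19.8%, median -0.13). With the block, 3 were higher in HSL than in AP. Sgcd, in these counts, was at least 0.573 CPM in basal libraries. Its lowest levels in AP and HSL (0.102 and 0 CPM) were below the filter level of 0.223, so any call of it against basal is a description. Pomgnt1, an enzyme that builds the ligand-binding glycan of dystroglycan, was 175 ± 28.6 CPM in basal libraries, 171 ± 14.4 in AP and 381 ± 51.8 in HSL, higher in HSL than in AP by 1.16 ± 0.12 (adjusted p = 1.01e-06). Sgcb, a sarcoglycan, was lower than basal by -2.60 ± 0.23 in AP and -3.09 ± 0.24 in HSL, and dystrophin (Dmd) was lower in HSL than in AP by -1.91 ± 0.19 (adjusted p = 8.37e-07).

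Other matrix genes near the basement membrane were mostly lower as well. Of 12, 10 were tested: 7 were lower and 1 higher in AP than in basal (23.1% and 21.5% of all genes), 9 lower and none higher in HSL than in basal (30.6% and 27.8%), and 9 lower and 1 higher in HSL than in AP (20.1% and 19.8%; medians -2.60, -5.09 and -2.87). Hmcn1, in these counts, was at least 9.37 CPM in basal libraries. Its lowest levels in AP and HSL (0.0384 and 0 CPM) were below the filter level of 0.223, so any call of it against basal is a description. Vwa1, a perlecan-binding protein, was 187 ± 44.4 CPM in basal libraries, 3.26 ± 1.15 in AP and 1.22 ± 1.02 in HSL, and Ltbp2 was 1732 ± 440, 95.6 ± 8.26 and 12.4 ± 10.1 CPM. Ntn1, a laminin-related netrin, was the exception at 11.6 ± 5.03 CPM in basal libraries, 239 ± 82.4 in AP and 22.5 ± 17.4 in HSL, higher in AP than in basal by 4.36 ± 0.47 (adjusted p = 5.8e-07). Of 12 proteases that act on basement membrane, 7 were lower and 2 higher in AP than in basal, 7 lower and 1 higher in HSL than in basal, and 4 lower and 3 higher in HSL than in AP, beside the same shares of all genes (medians -1.83, -2.48 and -0.44). The 2 higher in AP are 16.7% of the 12 and the 3 higher in HSL than in AP 25%, near the shares of all genes. Among these proteases, Mmp9 was at least 1.57 CPM in basal libraries. Its lowest levels in AP and HSL (0.0158 and 0 CPM) were below the filter level, so any call of Mmp9 against basal is a description. Adamts1 was 2233 ± 264 CPM in basal libraries, 90.6 ± 16.0 in AP and 28.7 ± 15.6 in HSL, whereas the membrane protease Mmp15 was 14.1 ± 8.82, 204 ± 115 and 187 ± 96.8 CPM, higher than basal by 3.85 ± 0.51 in AP and 3.73 ± 0.50 in HSL. Bmp1, a procollagen proteinase, was higher in HSL than in AP by 1.42 ± 0.16 (adjusted p = 2.04e-06).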

How the data were processed

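The counts are whole-number gene counts that the authors deposited for each library, 52636 identifiers per table, per the file headers. The RPKM values and gene widths that the authors deposited, per the file headers, were used only as checks: widths equal the genomic span, introns included, for 85.64% of matched identifiers, so levels per kilobase used merged exons of GENCODE M21. Per the submitters' processing notes, GRCm38 was the build. Neither aligner nor counter was given in the sources used here. Per the labels' protocols, cDNA was made with a Smart-Seq kit and libraries with Nextera XT, a kit that leaves strand unmarked.

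Of the identifiers 52489 matched GENCODE M21, and the 147 others held at most 0.00677% of counts. Overlapping genes are uncertain: 1134 of 1264 protein-coding genes with their whole span shared are at 0. Genes passing filterByExpr (minimum count 10, by population) were scaled by TMM and fitted with 1 mean per population over 18 libraries (edgeR 4.0.16, R 4.3.3, robust quasi-likelihood F test, Benjamini-Hochberg over 16471 genes). Same-numbered libraries deviated together in 18 of 18 pairs (r across genes 0.127 to 0.63), so the numbers were taken to pair the samples. What they shared was not tested. The main fit and the permutation tests leave the pairing out, and it enters only in the alternatives with a block or paired samples. Ratios used counts + 0.5. On simulated counts for AP against basal, HSL against basal and HSL against AP, 2-fold changes were called in 43, 50 and 35% and 4-fold changes in 81, 78 and 75% of genes, and 3.88, 3.76 and 5.98% of calls were false. Alternatives were the block, total counts, RLE factors, DESeq2 1.42.0, limma-voom (limma 3.58.1), no filter, a fold of 2, subsets of libraries and a pseudocount of 5. Tables and tests used Python 3.11.15.

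The members and lists were chosen with earlier results of these data known. Named genes were all members and, of 5 related lists, up to 2 called genes with the smallest adjusted p per direction and comparison, plus partner chains and the most abundant markers of other cell types. Not every gene so allowed is printed.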

Additional observations from a re-analysis of the deposited data

Results flagged for a closer look

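In 8 of 105 groups of 6 libraries (35 tested members in 3 populations), 1 library lay far from the other 5, by a test that chance passes in about 1 of 20 groups. Of the 8, 6 were in sample 1, whose libraries stood apart on the third principal component. In its HSL library, Sparc was 59.4 CPM against 31.9 in the next, Col4a1 28.6 against 13.9, Smoc1 13.2 against 3.97, Lama4 6.39 against 3.46 and Frem2 0.635 against 0.218. In its AP library Lamb2 was low, at 154 against 254 CPM in the next. Elsewhere Col17a1 was 7.63 CPM in the AP library of sample 6 against 3.03 in the next, and Smoc2 was 11.8 CPM in the basal library of sample 5 against 6.89.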

How the results depend on the processing

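Of 105 comparisons of a member, 76 kept their call and direction in all alternatives, and no called difference changed sign. With samples 1 to 3 alone, genes called higher and lower were 1709 and 2009 in AP against basal (3544 and 3812 over all samples), 2531 and 3143 in HSL against basal (4587 and 5034) and 443 and 1048 in HSL against AP (3256 and 3315), and members fell to 1 higher in AP against basal and to 2 higher and 13 lower in HSL against AP. This subset has 9 libraries fewer. A fold of at least 2 left 1992 genes higher and 2616 lower in AP against basal, 2546 and 3608 in HSL against basal, and 1391 and 2217 in HSL against AP. With limma-voom 4 members were higher in AP against basal. Total counts moved the median of all genes to 0.14 in AP against basal and -0.18 in HSL against AP, where genes called were then 2234 higher and 4043 lower, and members still 4 and 21. With the replicate block the members called were 2 higher and 27 lower, 3 and 30, and 5 and 23, and the ratios that differed were 8, 7 and 6. It changed no call of a member other than those given beside Lama1, Lama5, Lamb2, Col4a4 and Agrn. Leaving out 1 sample gave 2955 to 4127 genes higher and 3207 to 4225 lower in AP against basal, 3938 to 4983 and 4507 to 5668 in HSL against basal, and 2313 to 3836 and 2751 to 4062 in HSL against AP. Members were then 2 to 3 higher and 23 to 25 lower, 2 to 3 and 29 to 31, and 4 to 5 and 20 to 24, and ratios 8, 7 to 8 and 6 to 7. The 31 lower, without sample 1, include Col4a3, which was not tested over all samples. Depth limits Col4a4, Frem1 and the luminal levels of Fras1, Frem2 and Col17a1. Col4a3 is limited by depth and by the other genes that cover its exons. The counts without genes that passed the filter in 1 population only were chosen after the data were seen.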
